A study of Mus musculus with 468 samples.

Results

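The 47 adipose libraries with the highest level of Cd22 were compared with the libraries below the median Cd22 level, referred to here as the lower group. The 47 were chosen by their Cd22 level and make up 10.04% of the libraries of the series, each of which came from 1 Diversity Outbred (DO) mouse, and the lower group makes up 50%. Cd22 encodes a receptor that sits on B cells and restrains signalling through the B cell receptor. DO mice are an outbred stock bred from 8 inbred founder strains, and every mouse in the series, in either group, had been fed a diet high in fat and sucrose (HFHS), with 45 percent fat. RNA came from the gonadal fat pad, a visceral depot, by the account in the study's text. The labels place all libraries in a single group and give no sex, age or batch, so presence of counts from Ddx3y, a gene of the Y chromosome, was used as a covariate with 2 levels. The libraries between the groups entered no test.

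Levels are given as CPM, the expected count of a gene scaled to a common library total. Cd22 chose the libraries, so its values are a description. It ranged from 11.0 to 33.01 CPM in the 47 (median 15.0), from 3.26 to 10.9 in the libraries between (median 5.20) and from 0.151 to 3.26 in the lower group (median 1.79). The lowest of the 47 had 11.02 CPM and the next library outside had 10.89, so the boundary falls in a continuous run of values. At the median the values on either side were 3.259 and 3.255 CPM. The highest were DO414 with 33.01, DO109 with 32.8 and DO038 with 30.9 CPM.

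**Figure D1:**
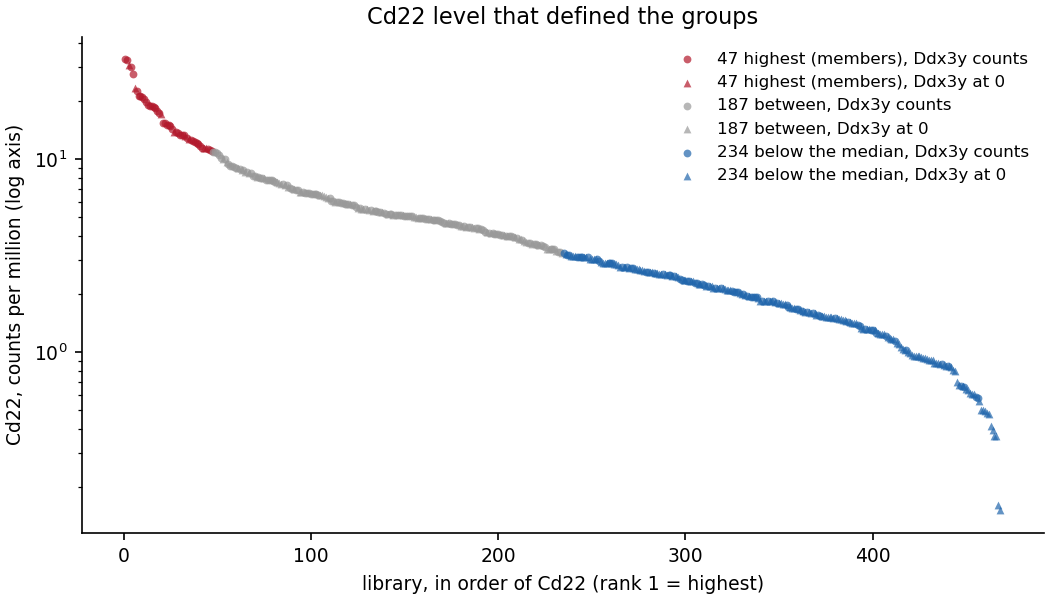
Cd22 level in CPM (log axis) against the rank of the library for all libraries, coloured by group, with circles for libraries with Ddx3y counts and triangles for those at 0. The 47 highest start at 11.0 CPM and those below the median end at 3.26 CPM, with no gap at either boundary.

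B cells make antibodies and present antigen. In the fat of the body cavity they are known to be present in the stroma between fat cells and in small lymphoid clusters, and they accumulate there in obesity. A lymph node cut out together with the fat would bring B cells too. It would also bring T cells in number, the chemokines Ccl21 and Ccl19 of the T cell zone, and the addressins and sulfotransferases of high endothelial venules, the vessels through which lymphocytes enter a node. Lists of genes for B cells, for lymph node, spleen, thymus and bone marrow, and for the other cells of fat were therefore read side by side. In bulk tissue, more cells of a type and more RNA per cell cannot be told apart.

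One of the 47 stood apart in its B cell genes. DO212 had 19.0 CPM of Cd22 but 0.388 CPM of Cd79a, 0.432 of Cd79b, 0.636 of Ms4a1 and 0.310 of Pax5. It was the only one of the 47 under the median of the lower group for Cd79a, and likewise for Ms4a1. Its Adgre1, which encodes the macrophage surface protein F4/80, was at 256.6 CPM, rank 6 among the 47. Without DO212 the number of genes that passed the test was 8465 in place of 8600. Other libraries of the 47 were also low. DO389, with Cd79a at 1.72 and Ms4a1 at 2.32 CPM, and DO210, with 1.96 and 1.97 CPM, were above the lower group's medians by little.

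The groups differed in Ddx3y. It had counts in 39 of the 47 (82.98%) and in 75 of the lower group (32.1%), an odds ratio of 10.3 (Fisher's exact test, 2-sided, p = 1.36e-10, adjusted over 4 checks 5.45e-10). The number of the mouse averaged 289.1 against 262.5 (permutation test, 2-sided, p = 0.265, adjusted 0.531). The number of the library averaged 445.3 against 462.2 (p = 0.456, adjusted 0.608, permutation test). The total count averaged 83.6 M against 82.7 M (permutation test, p = 0.627, adjusted 0.627) and ranged from 58.4 M to 123.9 M in the 47 and from 50.3 M to 137.8 M in the lower group. None of these 3 differences passed the test. Since each mouse gave 1 library, the spread combines animals with the assay.

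Of 18379 genes tested with edgeR's quasi-likelihood test, 8600 (46.8%) passed an adjusted p of 0.05 (Benjamini-Hochberg). Of these, 4195 (22.8%) were higher in the 47 and 4405 (24%) lower, and the median log2 fold change of all genes was -0.01. With scaling to total counts in place of TMM (trimmed mean of M values), the split was 8015 higher (43.6%) to 1435 lower (7.81%) and the median of all genes was 0.12, so the direction of small changes rests on the scaling. In no gene did the lowest of the 47 exceed the highest of the lower group (0 of 18379, 0%). A passed test is an association with the Cd22 level, because the groups were formed from it. Group medians pool libraries with and without Ddx3y counts, whereas fold changes come from the fit with Ddx3y as a term. Medians and fold changes can therefore differ in size, and medians alone do not give the association. For the list counts of this fit below, 22.8% higher and 24% lower are the shares over all genes.

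The B cell identity list rose almost as a whole. Of its 28 genes tested, 26 were higher and 1 lower, against 22.8% and 24% of all genes, with a median log2 fold change of 2.40 where all genes had -0.01. With DO212 left out the counts were also 26 and 1, against 22.5% and 23.6% of all genes. Cd79a, a signalling chain of the receptor, ranged from 0.388 to 32.3 CPM (median 12.1) against 0.211 to 6.69 (median 1.71), a log2 fold change of 2.67 ± 0.12 (edgeR adjusted p = 9.16e-59). In 35 of the 47 libraries it was above every library of the lower group. Ms4a1, which encodes CD20, ranged from 0.636 to 34.9 CPM (median 12.5) against 0.156 to 5.57 (median 1.71), with 38 of the 47 above the whole lower group. Its log2 fold change was 2.79 ± 0.13 (edgeR adjusted p = 9.16e-59).

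The transcription factors of the lineage rose by about the same amount. Pax5, which keeps B cells committed to their fate, had a median of 8.85 CPM against 1.18 (log2 fold change 2.73 ± 0.13). Spib, an Ets factor, had 6.57 against 0.959 CPM (2.63 ± 0.12). Pou2af1, the co-activator of octamer-binding factors, had 5.88 against 0.875 CPM (2.78 ± 0.14). Pax5 and Pou2af1 overlap other annotated genes, whose reads may not be separable if the counting ignored strand. The receptors Fcmr, for IgM (2.90 ± 0.15), and Tnfrsf13c, for the survival factor BAFF (2.97 ± 0.16), rose most among the list. Ebf1 and Cd55 were the members that did not rise. Ebf1, an early B cell factor that fat cell precursors also express, was 128.8 against 141.1 CPM at the median (-0.23 ± 0.04, edgeR adjusted p = 1.26e-07). Cd55, a complement regulator of many cells, was 68.2 against 61.2 CPM (0.03 ± 0.07, adjusted p = 0.711).

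Genes that mature, recirculating follicular B cells carry were among those that rose. Cr2 encodes complement receptor 2, which follicular dendritic cells also make. It ranged from 0.133 to 11.5 CPM in the 47 (median 3.14) and from 0.0122 to 2.60 in the lower group (median 0.347), with a log2 fold change of 2.77 ± 0.17 (edgeR adjusted p = 5.79e-40). Fcer2a, the low-affinity IgE receptor CD23, had a median of 1.82 against 0.226 CPM (2.48 ± 0.17). Cxcr5, the receptor for Cxcl13, had 3.74 against 0.728 CPM (2.24 ± 0.12). The groups overlapped in all 3, with 27, 30 and 29 of the 47 above the whole lower group.

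**Figure D2:**
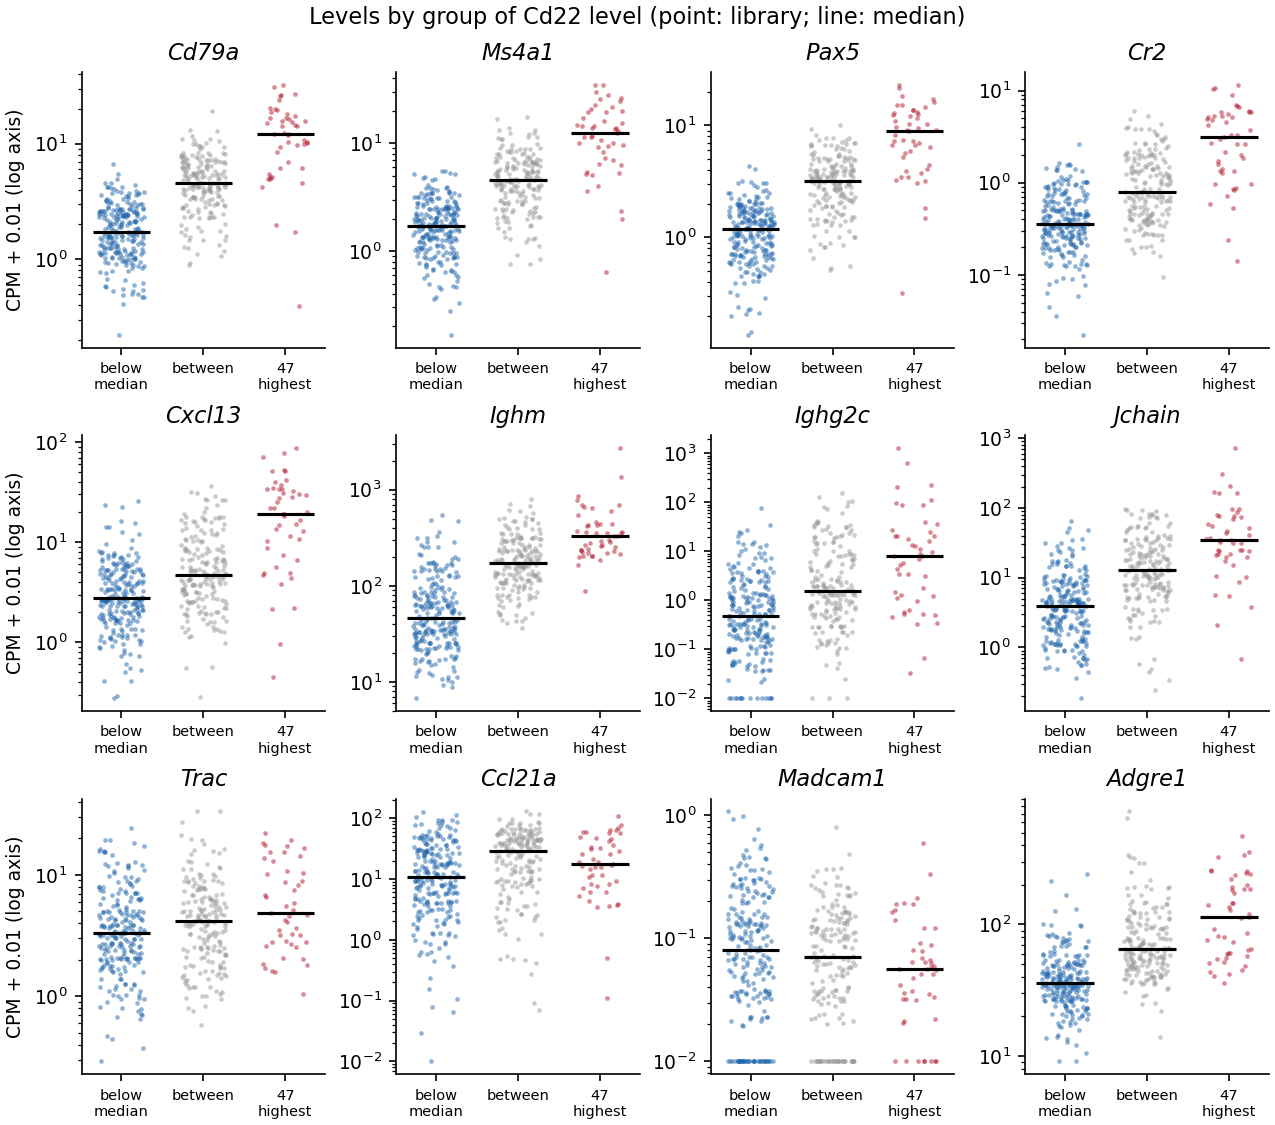
Levels of 12 genes in CPM plus 0.01 (log axes) for the libraries below the Cd22 median, those between and the 47 highest; each point is a library and each line the median. Cd79a, Ms4a1 and Pax5 are mostly higher in the 47 but overlap in part between the outer groups, with DO212 as the lowest point of the 47. Trac, Ccl21a and Madcam1 overlap throughout.

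Short promoter windows of genes on the B cell identity list were searched for motifs of B cell factors, whether or not the gene had risen. RefSeq promoters (GRCm38.p6, 250 bases before to 50 after each start) were found for 22 genes of the B cell identity list. Entries for Cd79b, Ms4a1, Blk, Cxcr5, Ly6d, Hvcn1 and Faim3 were among those missing. Both strands were searched for the octamer ATGCAAAT, the PU.1 and Spi-B core GAGGAAGT and the EBF palindrome (TCCC, any 2 bases, GGGA). The octamer was in 2 of the 22 (9.09%) against 1.75% of 27025 promoters. The PU.1 and Spi-B core was in 4 (18.2%) against 3.28%. The EBF motif was in none of the 22, and in 0.914% of all promoters. Cd22 itself, which is outside the list, held that motif 49 bases before the start. The letters are a description and show no bound factor. The promoters of Cd22 and of 3 list genes with a match follow, 5′ to 3′ on the strand of the gene, with the match in capitals. Cd72 and Fcrl1 hold the Ets core on the opposite strand, and Vpreb3, whose levels were too low for the test, holds the octamer on the opposite strand.
Cd22 promoter, chr7:30878979-30879278, minus strand: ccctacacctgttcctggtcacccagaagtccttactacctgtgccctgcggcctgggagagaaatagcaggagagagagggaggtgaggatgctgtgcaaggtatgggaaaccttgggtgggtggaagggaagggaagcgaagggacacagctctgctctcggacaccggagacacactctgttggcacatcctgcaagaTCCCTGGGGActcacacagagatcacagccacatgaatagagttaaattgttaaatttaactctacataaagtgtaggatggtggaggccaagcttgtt
Cd72 promoter, chr4:43454577-43454876, minus strand: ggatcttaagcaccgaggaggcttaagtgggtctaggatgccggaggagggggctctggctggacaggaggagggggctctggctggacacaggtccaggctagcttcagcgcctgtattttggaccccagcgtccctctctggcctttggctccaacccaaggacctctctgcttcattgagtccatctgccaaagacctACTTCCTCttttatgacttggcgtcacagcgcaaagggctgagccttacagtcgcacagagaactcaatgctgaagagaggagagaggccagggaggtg
Fcrl1 promoter, chr3:87376137-87376436, plus strand: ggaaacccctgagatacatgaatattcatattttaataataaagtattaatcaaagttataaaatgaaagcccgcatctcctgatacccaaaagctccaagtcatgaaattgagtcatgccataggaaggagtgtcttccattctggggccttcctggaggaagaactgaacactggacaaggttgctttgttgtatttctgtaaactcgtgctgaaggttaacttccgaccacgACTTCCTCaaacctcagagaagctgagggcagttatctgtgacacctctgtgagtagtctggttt
Vpreb3 promoter, chr10:75948050-75948349, plus strand: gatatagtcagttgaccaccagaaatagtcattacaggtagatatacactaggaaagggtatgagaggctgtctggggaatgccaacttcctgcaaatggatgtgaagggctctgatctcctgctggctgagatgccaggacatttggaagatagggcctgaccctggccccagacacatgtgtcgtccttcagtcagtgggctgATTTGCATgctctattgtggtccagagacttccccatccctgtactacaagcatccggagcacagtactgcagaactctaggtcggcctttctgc

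Among genes that averaged 1 CPM or more in the 47, those of immunoglobulins had the 8 largest rises. All 11 constant region genes tested were higher, with a median log2 fold change of 3.11. Among the variable segments, a group added after values had been seen, most had too few counts for the filter and were not tested. The 22 that passed were all higher (median 3.50). The filter, 10 counts in 50% of libraries, can be met by libraries outside the lower group alone. The result for the 22 therefore does not extend to the variable segments as a whole. Ighm, the heavy chain of IgM, ranged from 89.02 to 2717 CPM in the 47 (median 328.4) and from 6.74 to 550 in the lower group (median 45.6), with 9 of the 47 above the lower group. Its log2 fold change was 2.01 ± 0.18 (edgeR adjusted p = 3.25e-23). Igkc, the kappa light chain, had a median of 103.7 against 11.4 CPM (3.45 ± 0.25), and Ighd, carried by naive B cells, 8.03 against 1.33 CPM (2.17 ± 0.13).

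Heavy chains of IgG varied far more among the 47 than that of IgM did. Ighg2c, a heavy chain of IgG, ranged from 0.0221 CPM in DO212 to 1289 CPM in DO098, with a median of 7.88 against 0.463 in the lower group (5.02 ± 0.49, edgeR adjusted p = 2.45e-19). It was over 10 times the median of the lower group in 27 of the 47 (57.4%) and in 26 libraries of the lower group (11.1%). Ighm was over 10 times its own median in the lower group in 10 of the 47 (21.3%) and in 3 of the lower group (1.28%). With counts capped at the 99th percentile, the log2 fold change of Ighg2c was 3.88, so a few libraries carried part of its size. Ighg1 (4.33 ± 0.43), Ighg2b (4.50 ± 0.44) and Ighg3 (3.002 ± 0.46) showed the same wide range, and the highest Ighg3 value of all, 268.6 CPM, was in the lower group. Igha, the heavy chain of IgA, had 7.52 against 2.90 CPM at the median (2.61 ± 0.28). It was over 10 times the lower group's median in 9 of the 47 (19.1%) and in 6 of the lower group (2.56%). Near-identical segments and constant regions share reads, so their split between genes is uncertain.

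Plasma cells secrete antibody and lose most B cell surface genes. Of 12 genes on the plasma cell list, 9 were higher and 2 lower (median 0.56). With the log2 CPM of the macrophage gene Adgre1 added to the fit 4 were higher (median 0.26, against 7.21% of all genes). With Adgre1 and Cd3e 3 were (4.36% of all genes), and among libraries without Ddx3y counts 2 (8.05%). Jchain, which joins IgM and IgA into polymers, ranged from 0.664 to 722 CPM in the 47 (median 34.4) and from 0.176 to 65.8 in the lower group (median 3.95; 3.22 ± 0.26). Mzb1, a chaperone of antibody assembly, had 2.53 against 0.308 CPM (3.25 ± 0.20) and was over 10 times the median of the lower group in 19 of the 47 and in none of the lower group. Fcrl5, an Fc receptor-like gene of B and plasma cells, rose by 4.10 ± 0.27. Xbp1, which drives secretion in many cells, did not pass (165.2 against 149.6 CPM, adjusted p = 0.333). Irf4 and Ell2 were the 2 that were lower. DO098 held the highest Ighm, Igkc, Ighg2c, Ighg2b and Jchain of the 47.

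Of 10 genes listed for B-1 cells, an innate-like subset of body cavities, 8 were higher (median 1.02). They included Plac8 (9.62 against 3.97 CPM, 1.18 ± 0.22) and Ctla4 (0.567 against 0.262 CPM, 1.41 ± 0.18), both of which T cells and other leukocytes also make. Il5ra, a receptor that B-1 cells and eosinophils carry, was 1.09 against 0.288 CPM (1.80 ± 0.20). Of 7 germinal centre genes tested, 4 were higher and 1 lower (median 0.38). The highest in abundance were S1pr2 (20.1 against 11.3 CPM, 0.82 ± 0.09) and Basp1 (12.5 against 3.98, 1.02 ± 0.13).

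Of 19 genes of the signalling cascade behind the B cell receptor, 18 were higher (median 1.04), among them the adaptor Blnk (23.7 against 4.88 CPM, 1.44 ± 0.11) and the kinase Syk (140 against 50.9 CPM, 1.03 ± 0.08). Macrophages use most of these as well. With Adgre1 as a term 14 of the 19 were higher and 1 lower, against 7.21% and 3.98% of all genes, with a median of 0.32. Ranked by Cd79b 15 were higher (12.8% of all genes), with a median of 0.60. All 12 genes of class II antigen presentation were higher (median 1.05). Cd74, the invariant chain, was 569.3 against 223.6 CPM (0.98 ± 0.10), and H2-Ob, a modulator of peptide loading that is largely a B cell gene, was 6.13 against 1.49 CPM (1.83 ± 0.11).

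Of the 14 genes of B cell survival and chemotaxis tested, 9 were higher and 1 lower (median 0.45). Cxcl13, the chemokine that draws B cells through Cxcr5, stood out. It ranged from 0.436 to 87.5 CPM in the 47 (median 19.1) and from 0.266 to 25.8 in the lower group (median 2.73). In 19 of the 47 it was above every library of the lower group and over 10 times their median. Its log2 fold change was 2.66 ± 0.19 (edgeR adjusted p = 1.48e-32). Both Cxcl13 and Cr2 were over 10 times the lower group's median in 14 of the 47. Ccl21a was over 10 times in none of those 14. Its median in the lower group was already 10.8 CPM. It was over 10 times that median in 1 of the 47 (2.13%) and 2 of the lower group (0.855%). The count for Ccl21a therefore says little about the 14.

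Of 15 tested genes of lymph node stroma and of high endothelial venules, 8 were higher and 1 lower, against 22.8% and 24% of all genes, and the median was 0.31. With total count scaling 10 were higher (43.6% of all genes), among libraries without Ddx3y counts 6 (median 0.56, against 8.05%), and with Adgre1 as a term 3 (median 0.18, against 7.21%). Glycam1 and Fdcsp were not analysed here. Ccl21a, the chemokine of the T cell zone that lymphatic vessels also make, ranged from 0.0993 to 108.04 CPM in the 47 (median 17.5) and up to 127.6 CPM in the lower group (median 10.8). The fitted log2 fold change was -0.15 ± 0.27 (edgeR adjusted p = 0.692). The medians and the fit differ in sign, and the level of Ccl21a went with Ddx3y. With Ddx3y counts the medians were 21.5 CPM in the 47 and 27.95 CPM in the lower group, and without them 8.76 and 7.04 CPM. Of the 10 libraries with the highest Ccl21a, 1 was among the 47, 5 were between and 4 in the lower group. Reads shared with the near-identical Ccl21b are divided by estimation.

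Ccl19, the partner chemokine, had medians of 1.41 and 0.419 CPM (0.45 ± 0.15, edgeR adjusted p = 0.00923). It was over 10 times the lower group's median in 3 of the 47 (6.38%) and 3 of the lower group (1.28%). Chst4, the sulfotransferase of high endothelial venules, had 3.78 and 1.77 CPM (0.24 ± 0.25, adjusted p = 0.46). Madcam1, the mucosal addressin, was below the filter, at medians of 0.0459 and 0.0710 CPM. Its highest value was 0.586 CPM in the 47 and 1.07 CPM in the lower group. Besides Cxcl13 and Cr2, the members of the list that rose included Ubd (31.7 against 3.39 CPM, 1.60 ± 0.27), Fut7 (0.601 against 0.181 CPM, 1.15 ± 0.15) and Ch25h (0.421 against 0.156 CPM, 1.13 ± 0.17). Activated leukocytes express these 3 as well. The result for Ubd turned to -0.52 (adjusted p = 0.174) when Adgre1 was a term in the fit.

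T cells make up a large part of a lymph node. All 26 genes on the T cell list were higher, but by less than B cell genes, with a median of 1.11. Trac, the constant region of the T cell receptor alpha chain, ranged from 1.04 to 22.2 CPM in the 47 (median 4.86) and from 0.281 to 24.5 in the lower group (median 3.28), so the ranges overlapped almost fully (0.96 ± 0.19, edgeR adjusted p = 5.54e-06). Cd2, an adhesion receptor of T, NK and some B cells, had 4.64 against 1.61 CPM (1.44 ± 0.10). The summed level of the T cell list (without Thy1, a gene of stroma as well) had a median of 47.2 CPM in the 47 and 26.1 CPM in the lower group. The sum of the B cell list, without Ebf1 and Cd55, had 212.1 and 55.6 CPM. The T to B ratio of these sums was 0.259 at the median in the 47 (0.114 to 0.695), 0.340 between and 0.503 in the lower group (0.188 to 3.37). The order of these ratios is partly set by the choice of libraries on a B cell gene. The B cell sum also does not follow the genes specific to B cells alone. DO212 had a sum of 133.1 CPM with Cd79a at 0.388 CPM. The highest sum of the series, 411.6 CPM, was in DO021, between the groups, with Cd79a at 7.79 and Adgre1 at 730.1 CPM.

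Of 9 genes of naive T cells and their homing to nodes, 4 were higher and 1 lower (median 0.31). Il7r, the receptor for interleukin 7, had 16.9 against 3.24 CPM (1.70 ± 0.16), and with Adgre1 as a term 0.20 (adjusted p = 0.335). Of 12 genes of regulatory and effector T cells, 10 were higher (median 0.71), with Pdcd1 at 0.458 against 0.127 CPM (1.56 ± 0.23). All 12 NK cell genes were higher (median 0.81), but 3 with Adgre1 as a term (median 0.36, against 7.21% of all genes). With Adgre1 and Cd3e 0 were (4.36% of all genes), and among libraries without Ddx3y counts 0 (8.05%). Without Ddx3y counts (8 libraries of the 47), 3 of the 26 T cell genes were higher, against 8.05% of all genes, and with them (39 against 75 libraries) 26 were, against 22%. For Trac the difference between these sets was not past the test (interaction 0.79 ± 0.48, edgeR adjusted p = 0.502), which 52 of all genes passed (0.283%).

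**Figure D3:**
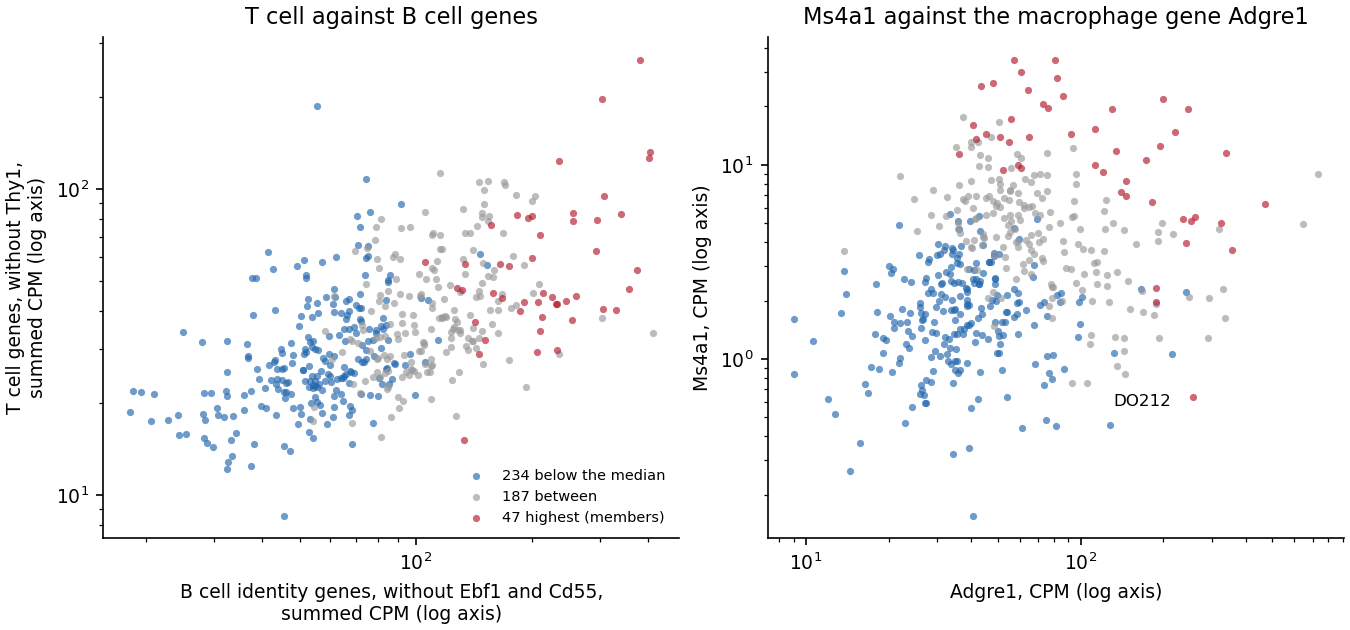
Left, summed CPM of T cell genes against summed CPM of B cell identity genes, 1 point per library on log axes; right, Ms4a1 against Adgre1 in CPM. The 47 (red) lie to the right of the lower group (blue) on the B cell axis, at medians of 212.1 and 55.6 CPM, and 38 of them above the whole lower group on Ms4a1, with DO212 marked, and they spread from 35.96 to 470 CPM in Adgre1.

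Few genes of other lymphoid organs could be tested. Of 7 spleen and red cell genes tested, 1 was higher (median -0.02, against 22.8% of all genes). The haemoglobin gene Hba-a2 had 366.2 against 286.6 CPM (-0.03 ± 0.17, adjusted p = 0.894). Tlx1, Nkx2-5, Nkx2-3 and Barx1 of the spleen list were not analysed here. Of 3 thymus genes tested, none was higher and 1 lower. Dntt, an enzyme of developing lymphocytes, had medians of 0.0217 and 0 CPM and its highest value, 6.35 CPM, in the lower group. Rag1, Rag2 and Foxn1 were not analysed here. Of 4 bone marrow genes tested, 1 was higher and 1 lower, where 22.8% and 24% of all genes were. Mpo had medians of 0.0992 and 0.0523 CPM.

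Macrophages of nodes and spleen gave 8 of 12 genes higher (median 0.49). Marco, a scavenger receptor of marginal zone and serous cavity macrophages, had 1.68 against 0.371 CPM (1.65 ± 0.20), and Cd5l, a secreted macrophage protein, 5.78 against 1.57 CPM (1.45 ± 0.15). Siglec1, the sialoadhesin of subcapsular macrophages, had 58.4 against 27.2 CPM (0.86 ± 0.10) and 0.07 with Adgre1 as a term (adjusted p = 0.669). Of 11 genes of lymphatic endothelium, 2 were higher and 1 lower (median -0.05), against 22.8% and 24% of all genes. Lyve1 had 43.3 against 32.3 CPM (-0.01 ± 0.10, edgeR adjusted p = 0.93). Of 15 genes of mesothelium, which lines the fat pad and covers its lymphoid clusters, 3 were higher (median 0.17, against 22.8% of all genes). Upk3b had 85.4 against 80.3 CPM (0.13 ± 0.11, adjusted p = 0.332), whereas Ezr, also found in lymphocytes, was 68.9 against 33.9 CPM (0.41 ± 0.08).

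Macrophage genes rose beside those of B cells. Of 20 on the list, 18 were higher (median 0.82), and the summed level was 2902 against 1206 CPM at the median, with 11 of the 47 above the lower group. Adgre1 ranged from 35.96 to 470 CPM in the 47 (median 113.2) and from 9.05 to 241.7 in the lower group (median 35.6; 1.25 ± 0.11, edgeR adjusted p = 2.73e-23). Itgax, the CD11c of lipid-associated macrophages and dendritic cells, ranged from 1.01 to 523.2 CPM (median 51.8) against 0.232 to 194.1 (median 3.39; 2.42 ± 0.25). Lyz2, the lysozyme of myeloid cells, had 700.99 against 255.5 CPM (1.14 ± 0.10). All 10 mitosis genes were higher as well (median 0.90), with Mki67 at 33.7 against 8.75 CPM (0.98 ± 0.16). Of 15 dendritic cell genes 10 were higher and 2 lower, of 8 neutrophil genes 7 were higher, of 10 mast cell genes 6, and of 16 interferon response genes 11. Irf8, a factor of dendritic and B cells, had 33.8 against 11.7 CPM (1.11 ± 0.10), and Cpa3, a mast cell protease, 7.16 against 5.39 CPM (0.74 ± 0.14).

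Fat cell genes were lower. Of 21 adipocyte genes, 18 were lower and none higher (median -0.39), and with total count scaling 15 were lower and 1 higher (7.81% and 43.6% of all genes). Fabp4, the fatty acid carrier of fat cells, was 8650.4 against 9735 CPM (-0.34 ± 0.04), Scd1, the stearoyl-CoA desaturase, 65017 against 83864 CPM (-0.53 ± 0.07) and Fasn, the fatty acid synthase, 4996 against 11147 CPM (-0.64 ± 0.14). Leptin (Lep) and Ucp1, the uncoupler of brown and beige fat, did not pass. Ucp1 had medians of 6.80 and 271.96 CPM over the groups, but 4.51 and 3.51 among libraries with Ddx3y counts and 57.8 and 579.1 among those without. Of 12 endothelial genes 9 were lower (median -0.13), with Kdr, the VEGF receptor, at 185.8 against 209.6 CPM (-0.30 ± 0.05); with total count scaling 1 was lower. Of 15 genes of adipocyte progenitors and fibroblasts, 9 were higher and 1 lower.

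The genes with the lowest p among those that fell were small in size, such as Sccpdh (22.3 against 32.1 CPM, -0.49 ± 0.06) and Cdadc1 (29.1 against 32.2 CPM, -0.28 ± 0.03). Among the largest falls, the fructose transporter Slc2a5 had 0.374 against 6.41 CPM at the median (-1.41 ± 0.32). The melanocortin receptor Mc5r had 0.850 against 3.31 CPM (-1.32 ± 0.24). In both genes the medians, which pool libraries with and without Ddx3y counts, lay further apart than the fit. In other large falls the group medians were close, and the lower group held values far above its median. Adam28 (-2.66 ± 0.44) had medians of 0.174 and 0.150 CPM and 213.01 CPM in DO194, and its fold change was -0.93 with capped counts. Cwc22 (-1.82 ± 0.35) had medians of 24.1 and 22.8 CPM and 872 CPM in DO185.

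The 47 were thus high in both B cell and macrophage transcripts, and the 2 were read apart in 2 ways. First, the log2 CPM of Adgre1 was added to the fit. The number of genes that passed was 2056, with 1325 higher (7.21%) and 731 lower (3.98%). B cell identity had 26 of 28 higher (median 2.58) and immunoglobulin constant regions 11 of 11 (median 3.28). Cd22, a B cell gene, chose the libraries, so the rise of these lists was largely set by that choice. Macrophage genes had 1 of 19 higher and 2 lower, mitosis 0 of 10, interferon response 0 of 16, class II presentation 7 of 12, T cells 21 of 26, lymph node stroma 3 of 15 and adipocytes 6 of 21 lower. Adgre1 belongs to the macrophage list, so the fall of that list was largely set by the term. Of other immune lists, B-1 cells had 8 of 10 higher, germinal centre 1 of 7, regulatory and effector T cells 7 of 12, dendritic cells 3 of 15, neutrophils 2 of 8 and mast cells 0 of 10. Cxcl13 had 2.98 (edgeR adjusted p = 2e-30), Cr2 2.99 and Ms4a1 2.97. Itgax had -0.14 (adjusted p = 0.734) and Mki67 -0.03 (adjusted p = 0.931). With both Adgre1 and the T cell gene Cd3e as terms, added after the data had been seen, 1071 genes passed, 801 of them higher (4.36%), and 25 of 28 B cell identity genes and 4 of 25 T cell genes were higher. Cd3e belongs to the T cell list, so the count for that list was likewise largely set by the term.

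Second, the libraries were ranked by Cd79b, the other signalling chain of the receptor. Of the 47 highest for Cd79b, 33 were also among the 47 highest for Cd22, and 4681 genes passed (2344 or 12.8% higher, 2337 lower). In that ranking 25 of 27 B cell identity genes were higher (median 2.59), 24 of 26 T cell genes (1.02), 5 of 20 macrophage genes (0.19), 0 of 10 mitosis genes (0.14), 14 of 16 interferon response genes (0.50) and 15 of 15 mesothelium genes (0.39). Adgre1 had a log2 fold change of 0.62 (adjusted p = 7.74e-05), Itgax 0.40 (adjusted p = 0.353), Trac -0.09 (adjusted p = 0.798), Ccl21a 0.42 (adjusted p = 0.227) and Upk3b 0.39 (adjusted p = 0.00152). Cxcl13 had 2.93 and Cr2 2.97. Cd79b is a B cell identity gene, so the rise of that list was largely set by the ranking. The rankings share libraries, and the difference between them was not tested.

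**Figure D4:**
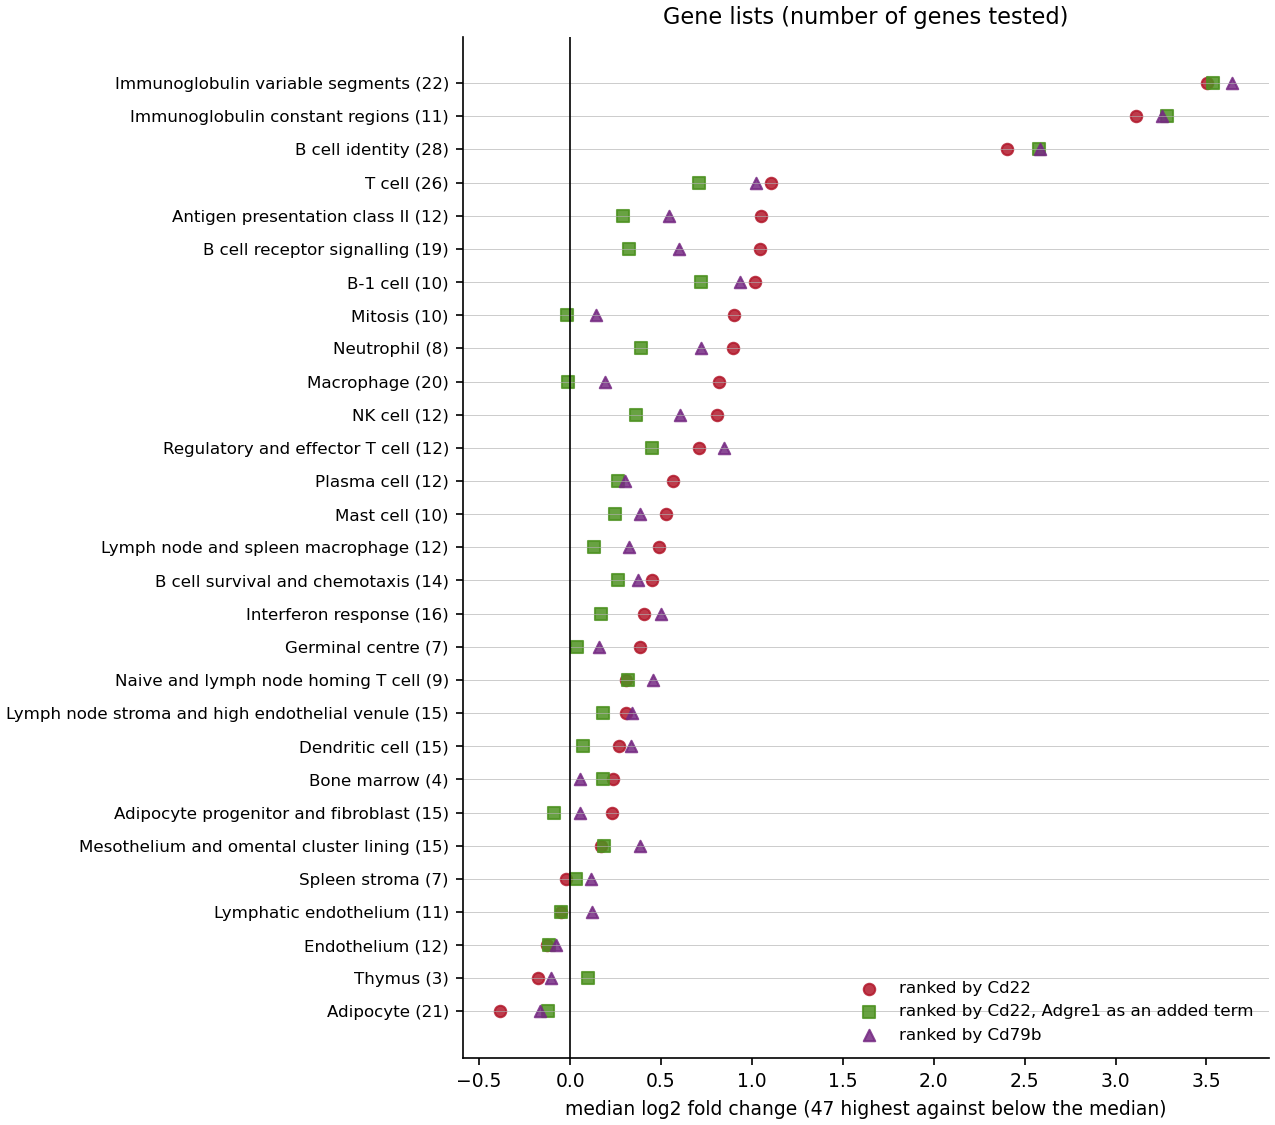
Median log2 fold change of each gene list (number of genes tested in brackets) between the 47 highest and the libraries below the median, ranked by Cd22 (circles), by Cd22 with Adgre1 as a term (squares) and by Cd79b (triangles). The B cell identity list and both immunoglobulin lists stay above 2 in all 3 while the macrophage list goes from 0.82 to -0.01 and 0.19 and the mitosis list from 0.90 to -0.02 and 0.14. Adgre1 is on the macrophage list and Cd79b on the B cell identity list. Cd22, which chose the libraries for circles and squares, is also a B cell gene.

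The labels give no sex, so the part that sex played in these differences was not tested directly. Ddx3y stood for it as a term, in the interaction test and in separate fits. Within the libraries with Ddx3y counts (39 against 75), 8080 genes passed, 22% of all higher, and without them (8 libraries of the 47) 2214, 8.05% higher. B cell identity had 26 of 28 higher in the first and 24 of 28 in the second. Ms4a1 had medians of 11.7 against 1.77 CPM and 13.4 against 1.65 CPM. Cd22, a B cell gene, chose the libraries in both fits.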

How the data were processed

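RNA from adipose tissue of 468 mice was sequenced from polyadenylated libraries on an Illumina NovaSeq, 1 library per mouse. The authors deposited expected counts, estimated for each gene by expectation maximization (EMASE in GBRS, versions not given in the sources used here). Each end of a read pair was aligned on its own to the pooled transcripts of the founder strains (GRCm38 per the submitters' processing notes). Reads shared by similar genes are divided between them, and of a pair each end can count. The authors also deposited log2-scale values of DESeq2's variance stabilizing transformation, used here for 1 alternative. Library totals lay between 35.3 M and 137.8 M counts. Use of strand in the counting is not given in the sources used here.

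CPM was computed from unrounded counts. The 47 libraries highest in Cd22 CPM were compared with the 234 below the median. Genes with at least 10 counts in at least 50% of libraries were kept (18380 of 23180), and Cd22 was left out. Counts were rounded and tested with edgeR 4.0.16 (TMM, quasi-likelihood, R 4.3.3) with membership and Ddx3y as terms. Alternatives used limma 3.58.1, DESeq2 1.42.0 and other rankings, filters and terms. The tests were checked on simulated counts. Permutation tests used 100000 resamples. The 28 gene lists and the libraries were chosen with earlier results of these data known. Named genes were those with the 12 largest changes or 5 lowest p in a direction, the 5 lowest interaction p, all genes of 3 lists, and the most abundant and most changed genes of the others. Lep, Adgre1, Cd3e, Prox1, Dntt and Mpo, and the promoters printed, were chosen after values had been seen. Gene identifiers matched GENCODE M21 (all 23180, with 99.2% at the same coordinates). Ribosomal RNA took a large share in DO405 and DO360, and DO153 had no Ddx3y counts and under 10 CPM of Xist. Leaving these 3 out gave 8603 genes. Some named genes and 1 alternative ranking are not reported here.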

Additional observations from a re-analysis of the deposited data

Results flagged for a closer look

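The association with Cd22 level differed between libraries with and without Ddx3y counts for 52 of 18379 genes (0.283%; edgeR interaction term, adjusted p under 0.05). Only 8 of the 47 libraries lacked Ddx3y counts. The count was 28 with capped counts, 48 with RLE scaling and 4 with limma. The 5 lowest p belonged to Gm16316 (interaction -2.31 on the log2 scale, with minus without Ddx3y), Tgm4 (-3.10), Dhrs9 (1.73), Dlg3 (0.79) and Rnf19a (-0.24), each at an adjusted p of 0.012. Dhrs9, an oxidoreductase of retinoids and steroids, had medians of 7.28 CPM in the 47 and 3.45 CPM in the lower group with Ddx3y counts, and 9.22 and 10.2 CPM without. Dlg3, a scaffold protein, had 16.1 and 9.36 CPM with, and 11.4 and 10.5 CPM without. Tgm4, a transglutaminase of the prostate, had medians of 0.181 and 0.161 CPM with Ddx3y counts and 45.3 CPM in 1 library of the lower group. Gm16316 had medians of 0.630 and 0.700 CPM with Ddx3y counts and 0.716 and 0.261 CPM without. Rnf19a, a ubiquitin ligase, had 51.1 and 52.6 CPM with, and 49.99 and 44.1 CPM without.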

How the results depend on the processing

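The count of 8600 genes (4195 higher, 4405 lower) was 2056 (1325, 731) with Adgre1 as a term, 1071 (801, 270) with Adgre1 and Cd3e as terms, 2214 (1480, 734) in libraries without Ddx3y counts and 4681 (2344, 2337) ranked by Cd79b. With total counts and no TMM 9450 genes passed, 8015 higher and 1435 lower, 84.8% higher in place of 48.8%. The other settings stayed within 1.5 times, from 7383 with Cd3e as a term to 11676 with Cd22 as a continuous term. The count of 52 for the interaction with Ddx3y was 28 with capped counts, 4 with limma and 1766 with the 94 highest as members. The mean library number of the 47 minus that of the lower group was -16.8, and -101.7 among libraries without Ddx3y counts (permutation test, p = 0.0441). Of 73 genes named with a fold change, 40 kept direction and call in every setting reported. The log2 fold change of Trac was -0.0855 ranked by Cd79b. The log2 fold change of Ubd was -0.52 with Adgre1 as a term and -0.55 with Adgre1 and Cd3e. The log2 fold change of Itgax was -0.14 and -0.13 with those terms, the log2 fold change of Mki67 -0.0315 and -0.0044, and the log2 fold change of Fasn 0.0070 and 0.0258. The cause was not tested. Settings without DO212, without DO405, DO360 and DO153, and with both added terms were chosen after seeing the data. Madcam1 and other genes below the filter were not tested. No paired analysis was possible because the labels put all libraries in 1 group.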
